A study of Mus musculus with 12 samples.

Results

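The genes described are Oprl1, which encodes the nociceptin receptor, and Pnoc, which encodes the precursor protein of its ligand. They were followed through every probe that carries either symbol in the probe annotation of an Illumina mouse bead array: 3 probes for Oprl1 and 1 for Pnoc, out of 45281 probes, or 2 genes out of 19057. The RNA was extracted from 1 mm punches of amygdala, both sides, of C57Bl/6J males 10 weeks old. The labels give 3 groups of 4 arrays: mice left in the home cage (HC), mice sampled 2 h after fear conditioning (FC), and mice that had been immobilized as well as fear conditioned, sampled 2 h after conditioning (IMO_FC). The design text names both conditioned groups by fear expression or extinction, while the sample labels name conditioning, and the names of the samples are used here. The interval between immobilization and conditioning is not given in the sources used here, there was no group with immobilization alone, and nothing says that each array came from a separate animal, so the p-values reflect the spread between samples, which may be partly technical.

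Nociceptin, also called orphanin FQ, is a neuropeptide cut from the prepronociceptin protein by proprotein convertases and carboxypeptidase. Its receptor belongs to the opioid receptor family by sequence, but it does not bind the classical opioid peptides with high affinity. It couples to Gi and Go proteins, through which it lowers cyclic AMP, opens inwardly rectifying potassium channels and closes voltage-gated calcium channels. In the amygdala, nociceptin is made by GABA neurons, a group of them in the central nucleus, and both peptide and receptor have been studied for their part in anxiety and fear memory.

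Oprl1 (Entrez gene 18389) lies on mouse chromosome 2 from 181715000 to 181720985, and Pnoc (Entrez gene 18155) on chromosome 14 from 65400673 to 65425564, in the GRCm38.p6 annotation of RefSeq. That annotation lists 19 transcripts for Oprl1 and 4 for Pnoc. Where in these transcripts each probe binds was not analysed here, so the 3 Oprl1 probes are kept apart and may read different sets of transcripts. Of the 2 genes, Oprl1 matched the table of promoter windows, with 3 windows of 300 bases (250 before and 50 after a transcript start). The first of them, on the plus strand at chr2:181714766-181715065, is shown because Oprl1 has several annotated starts and this window has the lowest coordinates of the 3. Capitals mark the bases from the window's own start onwards. The annotated span of the gene begins shortly before it, at 181715000, within the lower-case part.

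Oprl1 window 1: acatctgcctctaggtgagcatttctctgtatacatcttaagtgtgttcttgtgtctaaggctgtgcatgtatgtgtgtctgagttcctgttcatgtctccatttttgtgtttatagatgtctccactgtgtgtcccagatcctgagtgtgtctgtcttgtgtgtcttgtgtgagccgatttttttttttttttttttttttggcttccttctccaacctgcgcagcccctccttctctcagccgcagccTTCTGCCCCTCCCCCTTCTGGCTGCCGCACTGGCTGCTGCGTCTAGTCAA

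The G+C content of the 3 windows was 47.7%, 53.7% and 49.7%. Both strands were searched for 5 motifs. The cyclic AMP response element TGACGTCA, which occurs in 1.79% of 32851 windows of this length, was in none of the 3, nor was its core TGACG (20.8% of windows, which also counts those with the full element). The palindromic glucocorticoid response element (0.475% of windows) and the GC box GGGCGG (35.7%) were also in none. The TATA box letters TATAAA (13.6% of windows) were found 1 time, in the first window on the opposite strand, starting at base 111 of the window. These are matches of letters only.

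All 4 probes gave usable signals. On the 10 arrays other than FC 1 and FC 3, each was detected (detection p under 0.05, against the array's own negative control beads) on 10 of 10 arrays, with the highest detection p at 0.00214 for Oprl1 probe ILMN_1235369, 0.0235 for ILMN_2683352, 0.00427 for ILMN_2807572 and 0.0427 for Pnoc probe ILMN_1255322. FC 1 and FC 3 stood apart from the other arrays: 11.7% and 15.9% of all probes were detected there, against 39.0% to 50.7% on the other 10. They were left out of the main comparisons, which leaves FC with 2 arrays, and are shown separately. The number of arrays limits the precision of every value below.

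The deposited, unnormalized signals show how differently the 3 Oprl1 probes ranked the arrays. ILMN_1235369 read 66.4, 188, 160 and 294 on HC 1 to 4, 276 and 210 on FC 2 and FC 4, and 122, 213, 186 and 170 on IMO_FC 1 to 4. HC 1 was its lowest array and HC 4 its highest, so the home-cage arrays alone spanned the whole range of 4.43-fold. ILMN_2683352 read 147, 242, 132 and 160 in HC, 330 and 214 in FC, and 56.5, 122, 230 and 129 in IMO_FC. Its lowest array was IMO_FC 1 and its highest FC 2, 5.84-fold apart. ILMN_2807572 read 227, 389, 256 and 228 in HC, 241 and 217 in FC, and 78.6, 234, 305 and 195 in IMO_FC. Again IMO_FC 1 was the lowest, while HC 2 was the highest, 4.95-fold above it.

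Pnoc probe ILMN_1255322 read 151, 186, 196 and 125 on HC 1 to 4. It read 99.2 on FC 2 and 244 on FC 4, and 52.6, 187, 195 and 146 on IMO_FC 1 to 4. The 2 FC arrays thus held the second lowest and the highest of its 10 values, with all HC arrays between them, and IMO_FC 1 was the lowest. On FC 1 and FC 3 the probes parted. ILMN_1235369 kept signals of 246 and 221 there, with a detection p of 0 on both, while ILMN_2683352 read 37.4 and 61.9 and ILMN_2807572 read 37.99 and 56.7, none of them detected. Pnoc read 44.6 on FC 1, where it was detected (detection p of 0.0160), and 61.1 on FC 3, where it was not. The arrays also differed in overall brightness, whose part in these values was not tested: the median signal of all probes was 43.5 on HC 1, 45.7 on IMO_FC 1 and 35.6 on FC 1, the 3 arrays numbered 1, and 57.6 to 77.8 on the others.

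**Figure D1:**
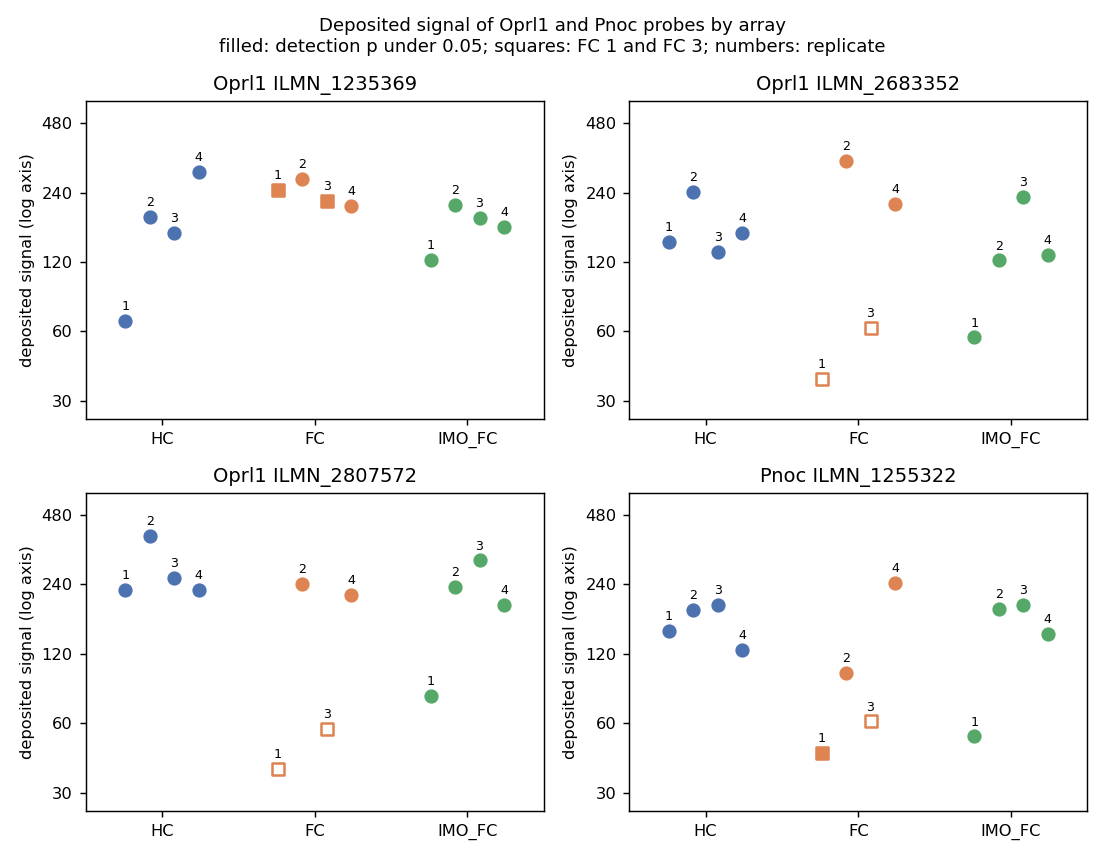
Deposited signal (log axis, arbitrary units) of the 3 Oprl1 probes and the Pnoc probe on each of the 12 arrays, by group, with the replicate number over each point. Filled points were detected at p under 0.05 and squares are FC 1 and FC 3, where ILMN_1235369 stayed at 246 and 221 while the other 2 Oprl1 probes were not detected.

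Background correction and quantile normalization over the 10 arrays changed the order of some arrays. For ILMN_2807572, HC 1 had the lowest deposited signal in HC (227) but the second highest normalized value of the 10 arrays (8.07). From lowest to highest array, the log2 values spanned 2.12 for ILMN_1235369, 2.45 for ILMN_2683352, 1.68 for ILMN_2807572 and 2.04 for Pnoc. For ILMN_1235369 they were 5.85, 6.95, 6.62 and 7.91 in HC (mean 6.83 ± 0.85 SD, n = 4), 7.97 and 7.32 in FC (7.65 ± 0.46, n = 2), and 7.30, 7.39, 6.91 and 6.94 in IMO_FC (7.13 ± 0.24, n = 4). The order of means was FC, IMO_FC, HC, and the ranges of neighbouring groups overlapped. For ILMN_2683352 the values were 7.36, 7.40, 6.21 and 6.82 in HC (6.95 ± 0.56), 8.26 and 7.35 in FC (7.81 ± 0.65), and 5.81, 6.39, 7.32 and 6.35 in IMO_FC (6.47 ± 0.63). Here the order was FC, HC, IMO_FC, with FC and HC overlapping, HC and IMO_FC overlapping, and FC just above IMO_FC, since FC 4 at 7.35 and IMO_FC 3 at 7.32 nearly met.

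For ILMN_2807572 the values were 8.07, 8.20, 7.51 and 7.47 in HC (7.82 ± 0.38), 7.74 and 7.38 in FC (7.56 ± 0.26), and 6.53, 7.54, 7.81 and 7.19 in IMO_FC (7.27 ± 0.55). The order was HC, FC, IMO_FC, and all groups overlapped. For Pnoc they were 7.41, 6.93, 7.02 and 6.30 in HC (6.92 ± 0.46), 5.98 and 7.59 in FC (6.79 ± 1.14), and 5.55, 7.17, 7.003 and 6.62 in IMO_FC (6.59 ± 0.73). The order was the same, HC, FC, IMO_FC, with the 2 FC arrays on either side of all 4 HC arrays. Compared with other tested probes, the residual spread within groups was larger than that of 71.0% for ILMN_1235369, 70.4% for ILMN_2683352, 48.3% for ILMN_2807572 and 81.8% for Pnoc.

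**Figure D2:**
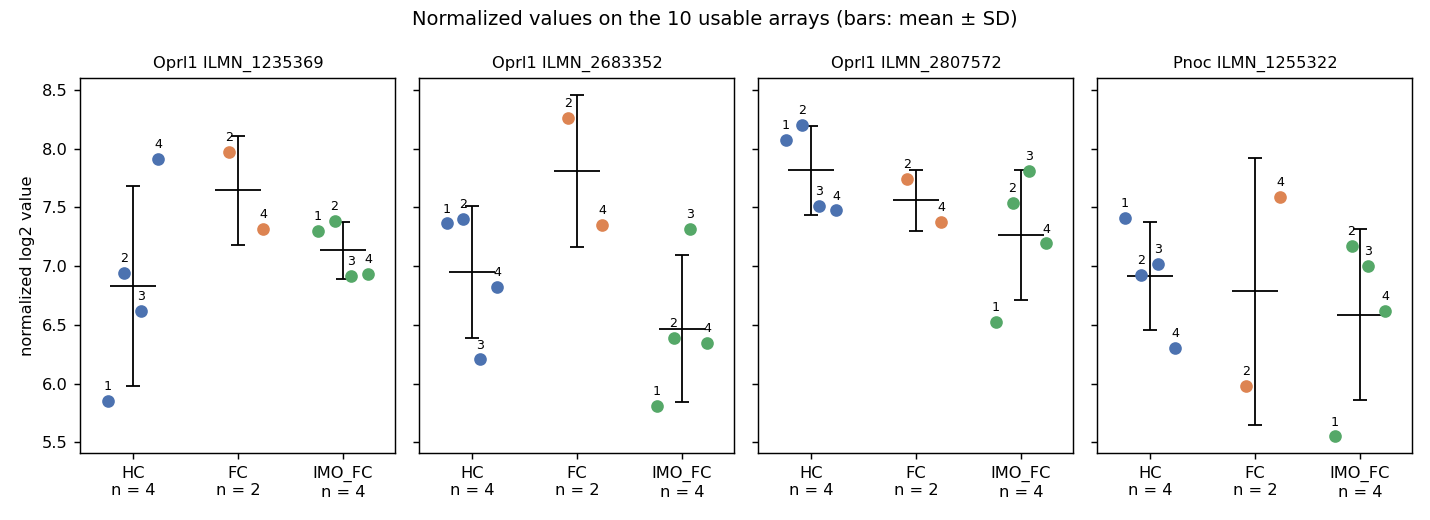
Normalized log2 values of each probe on the 10 usable arrays, with the replicate number over each point and the mean ± SD of each group. FC 2 and FC 4 lie above all 4 IMO_FC arrays only for ILMN_2683352, by a narrow margin (7.35 against 7.32).

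Fear conditioning against the home cage asks whether either gene's RNA differs 2 h after conditioning. No probe of either gene passed the test. The log2 difference was 0.81 ± 0.47 (SE; 95% interval -0.23 to 1.86) for ILMN_1235369, 0.86 ± 0.47 (-0.18 to 1.90) for ILMN_2683352, -0.25 ± 0.38 (-1.09 to 0.58) for ILMN_2807572 and -0.13 ± 0.54 (-1.32 to 1.06) for Pnoc. For Oprl1, 2 probes were thus higher in FC, by 1.76-fold and 1.81-fold, and the other lower, each within its interval. The limma fit across all tested probes gave adjusted p of at least 0.999, and of 23260 probes it called 0 (0% called), with 805 (3.46%) at unadjusted p under 0.05. The groups overlapped for all 4 probes, while 11.3% of tested probes had groups that did not. Two-sided exact permutation p-values were 0.267, 0.267, 0.467 and 0.867 in the same order, and the smallest that 2 against 4 arrays allow is 0.0667. Single arrays moved these values in both directions. ILMN_1235369 stood at 0.49 without FC 2 or without HC 1 and at 1.17 without HC 4. ILMN_2683352 stood at 0.40 without FC 2 and 1.32 without FC 4. ILMN_2807572 stood at -0.072 without FC 4, -0.13 without HC 2 and -0.44 without FC 2. The sign for Pnoc turned, to 0.67 without FC 2 and to 0.035 without HC 1.

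Immobilization with conditioning was next set against the home cage, and again no probe passed. The log2 difference was 0.30 ± 0.39 (-0.55 to 1.16) for ILMN_1235369, -0.48 ± 0.38 (-1.33 to 0.37) for ILMN_2683352, -0.55 ± 0.31 (-1.23 to 0.13) for ILMN_2807572 and -0.33 ± 0.44 (-1.30 to 0.64) for Pnoc. Oprl1 was therefore lower by 1.39-fold and 1.46-fold on 2 probes and higher by 1.23-fold on ILMN_1235369. With 4 arrays on each side, the upper ends of the intervals lay at 2.23-fold, 1.29-fold, 1.10-fold and 1.56-fold the HC level, in this probe order. Their lower ends lay at 0.682, 0.398, 0.426 and 0.406 of that level. Each interval is for a single probe, without adjustment for the number of probes tested. Adjusted p in limma was at least 0.999, with 0 of 23260 probes called (0%) and 737 (3.17%) at unadjusted p under 0.05. All 4 probes overlapped between the groups, as did all but 2.45% of those tested. Exact permutation p-values, two-sided, were 0.571, 0.343, 0.2 and 0.543, with 0.0286 the smallest possible. Without IMO_FC 1, ILMN_2683352 stood at -0.26 and ILMN_2807572 at -0.30, while without IMO_FC 3 they stood at -0.77 and -0.73. The sign for ILMN_1235369 turned without HC 1 (-0.025), and that for Pnoc without IMO_FC 1 (0.014).

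Among conditioned mice, those also immobilized can be set against those only conditioned. All 4 probes were lower in IMO_FC, and none passed the test. ILMN_2683352 differed most, by -1.34 ± 0.47 on the log2 scale (-2.38 to -0.30), or 2.53-fold lower. It was also the only probe of the 4, in any of the 3 comparisons, whose groups did not overlap. Its limma adjusted p was 1 (unadjusted 0.0164), and its two-sided exact permutation p of 0.0667 is the smallest these 2 against 4 arrays can give. Of all tested probes 9.82% had groups that did not overlap in this comparison, 5.07% with IMO_FC the lower, while 3.5% were at unadjusted p under 0.05, 1.83% with IMO_FC the lower, and 0 were called (0%). The difference for ILMN_2683352 was -0.88 without FC 2, -1.80 without FC 4 and -1.63 without IMO_FC 3. The other Oprl1 probes differed by -0.51 ± 0.47 (-1.56 to 0.54) and -0.29 ± 0.38 (-1.13 to 0.54), and Pnoc by -0.20 ± 0.54 (-1.39 to 0.99), with exact permutation p of 0.2, 0.667 and 0.867. The first of these, for ILMN_1235369, was -0.18 without FC 2, and that for ILMN_2807572 was -0.046 without IMO_FC 1. Without FC 4 they were -0.84 and -0.48. The sign for Pnoc turned without FC 4 (0.60) and without IMO_FC 1 (0.14). The 3 comparisons share groups, so their values are not independent of each other.

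With FC 1 and FC 3 included and all 12 arrays normalized together, the Oprl1 probes diverged. ILMN_1235369 had log2 values of 10.46 on FC 1 and 9.47 on FC 3, above all other arrays, and its FC against HC difference became 2.06 ± 0.66 (0.63 to 3.49). ILMN_2807572, at 6.29 and 4.53 on those arrays, went to -1.21 ± 0.58 (-2.46 to 0.037), and ILMN_2683352 to 0.13 ± 0.51. Neither the first (adjusted p = 0.297 in limma) nor any other probe was called (0 of 23516), although 16.7% of probes were at unadjusted p under 0.05. The median over all tested probes shifted to -0.29 in FC against HC and to 0.28 in IMO_FC against FC with these arrays, from -0.0012 and -0.0059 without them. In IMO_FC against FC the differences with 12 arrays were -1.77 for ILMN_1235369, -0.59 for ILMN_2683352, 0.67 for ILMN_2807572 and -0.59 for Pnoc. The 3 Oprl1 probes thus point in opposite directions depending on which probe is read, and the large values of ILMN_1235369 come with the 2 arrays of lowest detection.

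**Figure D3:**
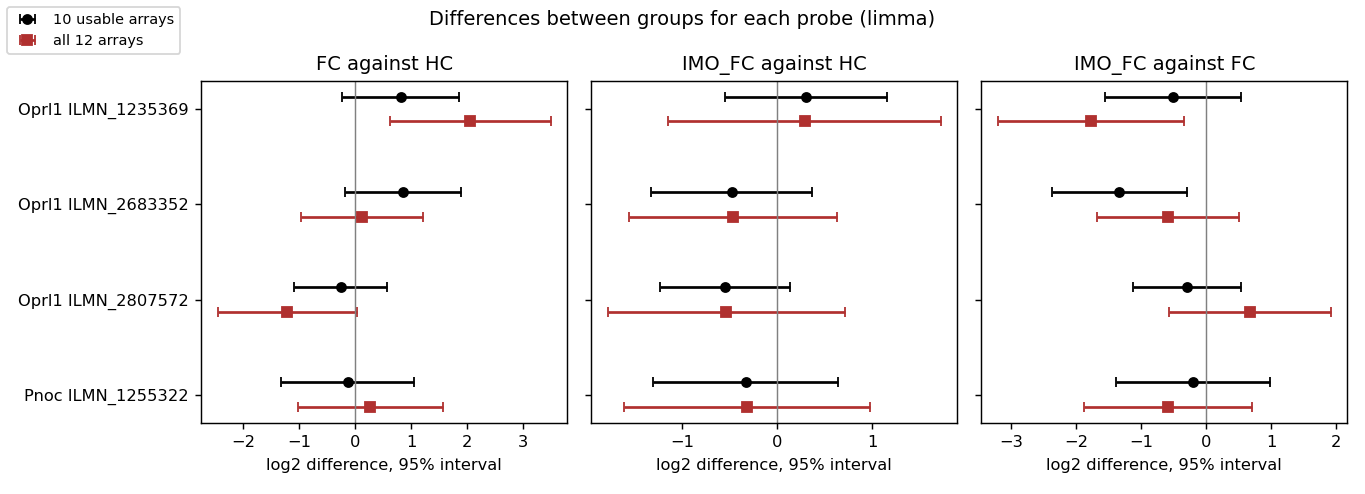
Log2 difference between groups for each probe with its 95% interval from limma, on the 10 usable arrays (black circles) and on all 12 (red squares). On 10 arrays the interval of ILMN_2683352 in IMO_FC against FC (-2.38 to -0.30) is the only 1 of 12 that excludes 0, before adjustment for the number of probes tested.

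Whether probes of the same gene rank the arrays alike was examined over the 10 arrays, for 6 pairs. ILMN_2683352 and ILMN_2807572 went together, with Pearson r = 0.70 and Spearman rho = 0.72 (permutation p = 0.0217 and 0.0235, adjusted over 6 pairs 0.130 and 0.141). When each array was taken as its deviation from its group's mean, r was 0.87 and rho 0.85 (permutation p = 0.00109 and 0.00312, adjusted 0.00654 and 0.0187). The shuffling treated the 10 deviations as interchangeable. They are not once group means are removed, and the 2 FC deviations mirror each other, so these p-values may be too small. Without the arrays farthest from the median, FC 2 and IMO_FC 1, r was 0.66 over 8 arrays (permutation p = 0.0904, adjusted 0.542), close to its value over 10. The probe ILMN_1235369 followed neither: r was 0.13 with ILMN_2683352 and -0.33 with ILMN_2807572 (permutation p = 0.718 and 0.351; rho 0.20 and -0.25). HC 1, the lowest array for ILMN_1235369, was the second highest for ILMN_2807572.

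The pairs of receptor and precursor did not pass the adjustment. Pnoc had r = 0.56 with ILMN_2807572 (rho = 0.30; permutation p = 0.0933 and 0.409), which was 0.13 without HC 2 and IMO_FC 1. It had r = 0.20 with ILMN_2683352 (rho = 0.18) and r = -0.55 with ILMN_1235369 (rho = -0.41; permutation p = 0.100 and 0.250), the latter -0.28 without HC 1 and FC 2. In deviations from group means, r with ILMN_1235369 was -0.60 and rho -0.65 (permutation p = 0.0617 and 0.0493, adjusted over 6 pairs 0.185 and 0.148), so this pair did not pass the adjustment either way. The limit on p-values from shuffled deviations holds here too. The arrays share their overall brightness and tissue makeup across probes, and IMO_FC 1, lowest for 3 of the 4 probes, also had the smallest share of detected probes of the 10 arrays.

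**Figure D4:**
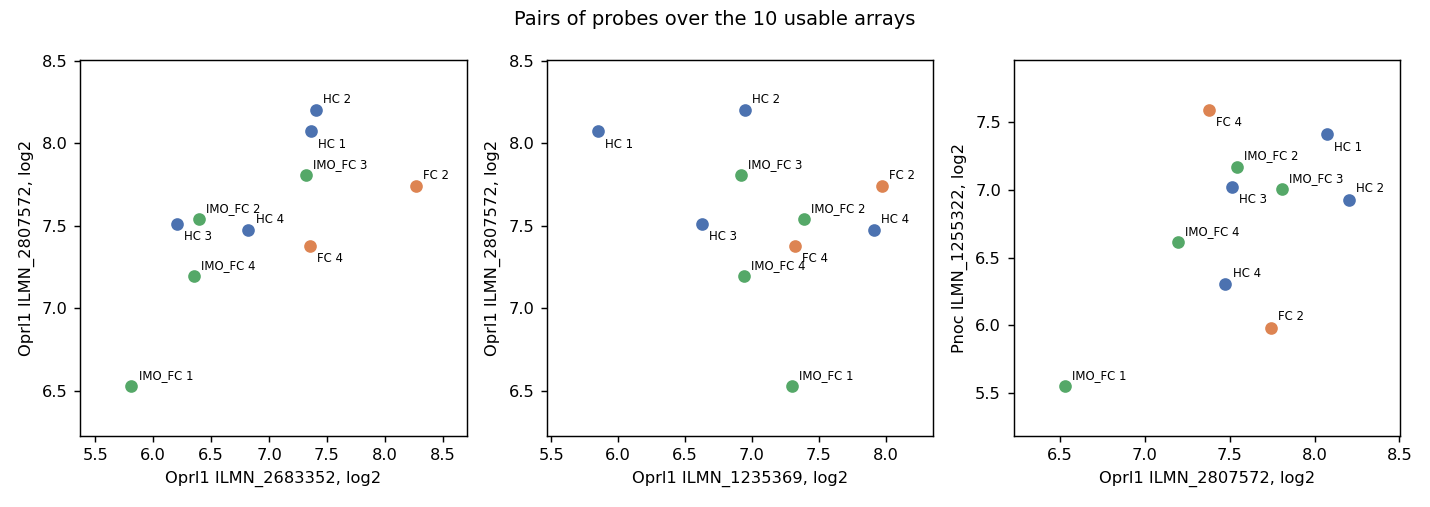
Normalized log2 values of 3 of the 6 pairs of probes over the 10 usable arrays, each point an array coloured by group. ILMN_2683352 and ILMN_2807572 go together (r = 0.70), ILMN_1235369 does not follow ILMN_2807572 (r = -0.33), and IMO_FC 1 sits low for Pnoc and ILMN_2807572.

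The labelled tissue was checked against its markers. All 8 general neuron markers and all 8 markers of excitatory amygdala neurons were detected on all 10 arrays, as were 7 of 11 markers of GABA and central amygdala neurons. The other 4 of these were detected on fewer arrays: Tac2 on 9, Prkcd on 7, Calcrl on 6 and Crh on 5. Since Pnoc is made by GABA neurons, the mean log2 deviation of the 11 GABA and central amygdala markers is given beside it. It ranged from -0.13 to 0.18 in HC, was 0.099 on FC 2 and -0.47 on FC 4, and ranged from -0.41 to 0.38 in IMO_FC. FC 4, the highest array for Pnoc, thus had the lowest mean for these markers, and IMO_FC 1, the lowest array for Pnoc, the second lowest at -0.41. The markers spread unequally over the FC arrays, with an SD of 2.08 for Dlk1, 1.56 for Prkcd and 1.32 for Tac2, and at most 0.70 for the rest. It was 0.14 for Gad1 and 0.025 for Slc32a1, so the low mean on FC 4 does not describe every marker. IMO_FC 1 was low for several cell types, at -0.89 for the excitatory markers, -0.85 for endothelial, -0.70 for astrocyte, -0.20 for general neuron and -0.18 for oligodendrocyte markers, while it stood at 0.042 for microglial and 0.63 for striatal markers. Of the choroid plexus markers 4 of 7 were tested. Their mean deviation ranged from -0.33 to 1.72 in HC, -1.27 to 0.62 in FC and -0.99 to 0.12 in IMO_FC. Kl was detected on 10 of 10 arrays, Ttr on 9, Clic6 on 8, Aqp1 on 5, Otx2 on 2 and Folr1 on 1. In IMO_FC against HC, Ttr stood at -2.95 ± 1.20 and Aqp1 at -2.22 ± 0.87 (unadjusted p = 0.0329 and 0.0280, adjusted at least 0.999 in limma). Clic6 was at -0.31 ± 0.43 and Kl at 0.30 ± 0.24 there, so the markers did not all move alike. In FC against HC, Ttr was at -2.73 ± 1.47, Aqp1 at -1.43 ± 1.07, Clic6 at -0.18 ± 0.52 and Kl at 0.12 ± 0.30. All 5 striatal markers with a probe were detected on all 10 arrays. Of the hippocampal and hypothalamic markers Oxt and Wfs1 were detected on 10, Prox1 on 9, Trh on 6, Pmch on 5, Avp on 3, and Hcrt and Sim1 on 0. The part of tissue makeup in the values of Oprl1 and Pnoc was not tested, and in bulk tissue fewer cells of a type and less RNA per cell cannot be told apart.

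The rest of the nociceptin pathway was read through 5 lists, with the brightest tested probe per gene, and no gene in them passed the test in any comparison. Over all 11585 genes tested this way the median log2 difference was -0.011 for conditioning against the home cage, -0.022 for the immobilized and conditioned group against the home cage and -0.012 between both conditioned groups, and 3.24%, 3.30% and 3.22% were at unadjusted p under 0.05. Of the opioid family, the precursors Penk, Pdyn and Pomc, the kappa receptor Oprk1 and the opioid growth factor receptor genes Ogfr and Ogfrl1 could be tested. In each comparison with HC, 3 were higher and 3 lower, with medians of -0.0077 and -0.028, and in IMO_FC against FC 4 were higher and 2 lower (median 0.11). The smallest unadjusted p among them was 0.198, for Ogfr, at -0.46 ± 0.33 in IMO_FC against FC. Oprk1, at -0.37 ± 0.28 in FC against HC, was detected on 6 of 10 arrays, and the enkephalin precursor Penk stood at 0.51 ± 0.48 in IMO_FC against HC. The mu receptor's probe (Oprm1) was detected on 0 of the 10 arrays, and no probe carried the symbol Oprd1 (delta receptor).

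Among genes for peptide processing and breakdown, 7 of 11 were tested. They were higher in 5 and lower in 2 in both comparisons with HC (medians 0.15 and 0.054). The prohormone convertase Pcsk1 stood at 0.73 ± 0.44 in FC against HC (unadjusted p = 0.126 in limma). The peptidase Prep stood at 0.43 ± 0.32 and Pcsk1n, which encodes an inhibitor of that convertase, at 0.35 ± 0.30, both in IMO_FC against HC. Of the Gi/Go-type alpha subunits and the beta and gamma subunits, 18 of 20 were tested, with 10 higher and 8 lower in FC against HC (median 0.12) and 7 higher and 11 lower in both other comparisons (medians -0.033 and -0.083). The gamma subunit Gng11 stood at 0.65 ± 0.28 in IMO_FC against FC (unadjusted p = 0.0429 in limma, adjusted 1). Gng12 was at -0.72 ± 0.34 and the alpha subunit Gnaz at 0.52 ± 0.29, both in IMO_FC against HC.

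Effectors comprised the inwardly rectifying potassium channels, voltage-gated calcium channels and adenylyl cyclases. Of 18 genes 16 were tested, with 5 higher and 11 lower in FC against HC (median -0.10) and 7 higher and 9 lower in both other comparisons (medians -0.037 and -0.030). The potassium channel subunits did not share a direction in FC against HC. Kcnj6 was at 0.96 ± 0.43 (unadjusted p = 0.0491 in limma), Kcnj3 at -0.90 ± 0.46 (0.0789) and Kcnj9 at -0.96 ± 0.51 (0.0865), all with adjusted p of 0.9999. The SD over the 2 FC arrays was 0.75, 1.30 and 1.15 in this order. With all 12 arrays Kcnj6 stood at 0.0092 and Kcnj3 at -0.81. The cyclase Adcy7 was at 0.52 ± 0.27 in IMO_FC against HC. Of arrestins, receptor kinases and RGS proteins, which end receptor or G protein signalling, 15 of 16 were tested, with 5 higher and 10 lower in each comparison with HC (medians -0.039 and -0.10) and 7 higher and 8 lower in IMO_FC against FC (median -0.062). Here 3 of 15 genes were at unadjusted p under 0.05 in IMO_FC against FC, compared with 3.22% over all genes tested this way. Rgs20, a member of the RGS family that acts on Gz, had the smallest p of the 5 lists, with a log2 difference of -1.69 ± 0.44 (-2.65 to -0.72; unadjusted p = 0.00280 and adjusted p = 1 in limma). Its probe was detected on 7 of 10 arrays. The receptor kinase Grk3 was at 1.15 ± 0.45 and the arrestin Arrb2 at -1.28 ± 0.54 in the same comparison (unadjusted p = 0.0287 and 0.0386 in limma). Rgs16 was at -1.10 ± 0.37 in FC against HC (unadjusted p = 0.0139 in limma).

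**Figure D5:**
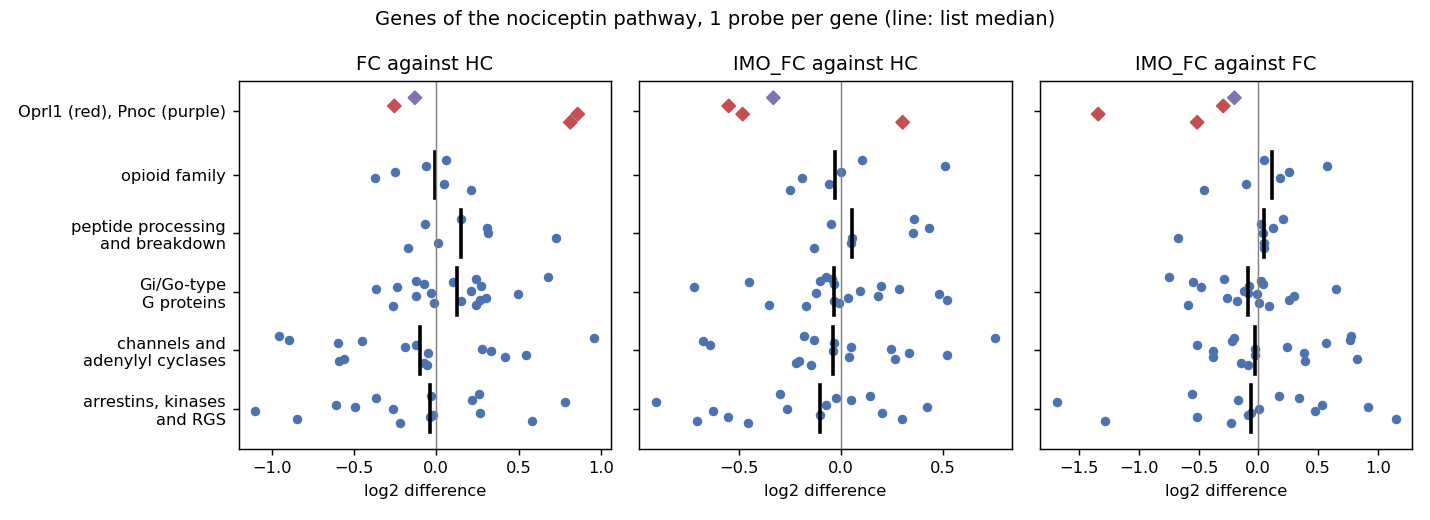
Log2 differences on the 10 usable arrays for the genes of the 5 pathway lists (blue points, 1 probe per gene; black line, list median) with the Oprl1 probes (red diamonds) and the Pnoc probe (purple) above. List medians lie between -0.10 and 0.15 in all 3 comparisons, and Oprl1 probes lie on both sides of 0 in the comparisons with HC.

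The genes beside Oprl1 and Pnoc on the chromosome were not called either. The nearest tested neighbour of Oprl1 was Rgs19, which encodes another RGS protein and lies 20462 bases away in RefSeq's annotation. It stood at -0.49 ± 0.55 in FC against HC, at 0.42 ± 0.45 in IMO_FC against HC and at 0.91 ± 0.55 in IMO_FC against FC. The further neighbours Tcea2, Myt1 and Pcmtd2 lay between 0.059 and 0.77 in IMO_FC against FC, where all 3 Oprl1 probes were below 0. The nearest tested neighbour of Pnoc was Zfp395, 1742 bases away, at 0.48 ± 0.57, 0.26 ± 0.46 and -0.22 ± 0.57 in the same order. Fbxo16, Elp3 and Scara5, farther from Pnoc, lay between -0.53 and 0.14 over the 3 comparisons.

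The genes whose normalized values went most nearly with each probe over the 10 arrays were sought among tested probes of single named genes. The probe's own gene was left out, which gave 18891 probes to search for each Oprl1 probe and 18893 for Pnoc. No gene was among the 5 nearest of more than 1 probe. For ILMN_1235369 they were H2-D1, Araf, Upp2, Timm17b and Samd4, with r from 0.91 to 0.88. For ILMN_2683352 they were Wnt5a, Olfr1381, Ube2f, Otud7b and Ppp1r35 (0.94 to 0.92). For ILMN_2807572 they were Snx13, Myh6, Pip4p1, Ercc6 and Col8a1 (0.96 to 0.94), and for Pnoc Atp2b1, Sbno1, Efcab14, Brinp1 and Abi1 (0.97 to 0.95). Among the 18890 such probes of genes other than Oprl1 and Pnoc, the share with r over 0.8 was 0.334% and 0.630% for the first 2 Oprl1 probes. It was 2.43% for ILMN_2807572 and 3.34% for Pnoc. These are descriptions over 10 arrays that share brightness and tissue makeup, chosen as the highest of many.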

How the data were processed

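Values were single-colour bead-array data. Per the file headers, the authors deposited, for each of 45281 probes and 12 arrays, an unnormalized signal intensity and a detection p-value. They also deposited a linear-scale table of normalized intensity (median of each array 60.03 to 60.67), whose method is not given in the sources used here. Per the labels, RNA was purified with RNeasy Mini kits and biotin-labelled with the Ambion MessageAmp procedure. Probe genes came from the platform annotation: 34885 probes had 1 symbol, 18 several and 10378 none.

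From the deposited intensities, limma 3.58.1 (R 4.3.3) corrected background from the detection p-values (offset 16), quantile normalized and took log2. Probes detected on at least 4 of the 10 arrays other than FC 1 and FC 3 were tested (23260). A linear model with a mean per group (7 residual degrees of freedom before moderation) gave 3 contrasts, with Benjamini-Hochberg adjustment over all tested probes and a threshold of 0.05. Exact permutation tests were two-sided. Correlations over 10 arrays used 100000 resamples (scipy 1.17.1).

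Members, lists and tests were chosen with earlier results of these data known. Named beyond the member probes are, per list, the 3 genes of smallest unadjusted p over the contrasts, the other tested opioid genes, 2 tested neighbours on each side and the 5 genes of highest r per probe. Kcnj9 and Arrb2 were also named, after their values were seen. Marker genes named one by one were chosen after their values were seen. Alternatives were all 12 arrays, the authors' values, no background correction, an offset of 50, median scaling, cyclic loess, no or stricter detection filters, array weights, an intensity trend with a robust prior, only the groups compared, the replicate number as a block and each array left out. The fit was tested on simulated data.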

Additional observations from a re-analysis of the deposited data

Results flagged for a closer look

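Signals were present on the 2 arrays that the main comparisons leave out. Normalized with all 12 arrays, Oprl1 probe ILMN_1235369 had log2 values of 10.46 on FC 1 and 9.47 on FC 3, above its highest HC array (7.67). Pnoc probe ILMN_1255322 had 8.67 on FC 1, above its highest HC array (7.18), from a deposited signal of 44.6, which is below the deposited signals of all 4 HC arrays. The deposited signals of ILMN_1235369 there, 246 and 221, lay within the range of the HC arrays (66.4 to 294). Quantile normalization places a probe by its rank on the array, and the share of detected probes on FC 1 and FC 3 was 11.7% and 15.9%. No array stood out by its gap from its group in the groups of 4 usable arrays.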

How the results depend on the processing

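Some alternatives could not turn a direction: the detection filters, the intensity trend and the fit of only the groups compared leave the difference itself unchanged. Leaving out an array of the group outside a comparison acts on the difference only through the normalization. These settings are counted in what follows. Of 258 values of the 4 probes under the alternatives, 249 kept their direction and side of the threshold, 9 turned in direction and 0 passed it. Those 9 were, with all 12 arrays, ILMN_2807572 in IMO_FC against FC (0.67) and Pnoc in FC against HC (0.27); with array weights, Pnoc in IMO_FC against FC (0.077); and single arrays left out, where Pnoc in FC against HC ranged from -0.93 to 0.67, in IMO_FC against HC from -0.53 to 0.014 and in IMO_FC against FC from -1.0 to 0.60, and ILMN_1235369 in IMO_FC against HC from -0.025 to 0.66. The turned values left out HC 1 (Pnoc 0.035 in FC against HC), FC 2, FC 4 or IMO_FC 1 (Pnoc 0.14 in IMO_FC against FC). Where 1 FC array was left, it was assumed to vary like the other groups. With no detection filter 2 probes were called in FC against HC and 3 in IMO_FC against FC, against 0 with it, and none of these had passed the filter. The pair ILMN_1235369 and ILMN_2683352 had r of -0.13 in deviations from group means, and the pair ILMN_2683352 and ILMN_2807572 had 0.87. With all 12 arrays other genes also turned: in FC against HC, Oprk1 (0.060), Tcea2 (0.23), Pcmtd2 (-1.47), Fbxo16 (0.22) and Elp3 (-1.70), and in IMO_FC against FC, Zfp395 (0.045), Elp3 (1.79) and Scara5 (-0.14). The list medians moved to between -1.07 and -0.44 in FC against HC and between 0.35 and 0.85 in IMO_FC against FC. The cause was not tested. The neighbouring genes' alternatives were added after seeing the data.

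With the replicate number as a block, 0 probes were called in each comparison, and ILMN_2683352 stood at -1.31 in IMO_FC against FC and ILMN_1235369 at 0.50 in FC against HC. Same-numbered HC and IMO_FC arrays had deviations correlated at -0.021 to 0.091, and 2 of 4 pairs correlated best with their own number. So few pairs cannot decide whether same-numbered samples belong together, and the 3 arrays numbered 1 were the dimmest. The 2 usable FC arrays were not in this check. Requiring a detection p under 0.01 on each of the 10 arrays left no value for ILMN_2683352 and Pnoc. A slide block was not run, since the deposited values name no slide.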
